A study of Mus musculus with 4 samples.

Results

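A set of 9 receptor genes that guide neutrophils was examined in fibrotic mouse liver: Cxcr2, Cxcr1, Cxcr4, Ccr1, Fpr1, Fpr2, C5ar1, Ltb4r1 and Ptafr. The 9 genes were chosen by name as receptors of neutrophil chemotaxis and retention, with earlier results of these data known, and matched by gene symbol to array probe sets that list a single gene. Of the 9, 7 had such a probe set, among 18193 genes with one in all. Of these 7, 6 lay above the filter on low values, a mean signal over the 4 arrays above 95.03, as did 12187 genes in all. Cxcr1 and Fpr1 matched no such probe set and are not analysed here, and Ptafr lay below the filter. Both groups were C57BL/6 mice given 30 injections of carbon tetrachloride (CCl4), a hepatotoxin, at 1 ml/kg body weight, and the labels call the livers of both fibrotic. The G-CSF group received recombinant human granulocyte colony-stimulating factor, the cytokine that drives neutrophil production, at 100 µg/kg body weight over the 7 days that led up to the last CCl4 dose. The PBS group received phosphate-buffered saline with 0.1% mouse serum albumin over the same days. Neither the age of the mice nor a sort of the cells is given in the sources used here, and the labels give bone marrow-derived cells as the cell type and liver as the tissue. Each group has 2 Affymetrix arrays, and the labels do not say that these came from separate animals, so p-values measure only the spread between these arrays.

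All 9 proteins are G protein-coupled receptors with 7 membrane-spanning helices, and most signal mainly through the Gi family. Cxcr2 and Cxcr1 bind the ELR-containing CXC chemokines, Fpr1 and Fpr2 bind formylated bacterial peptides and host agonists such as annexin A1, C5ar1 binds the complement fragment C5a, Ltb4r1 binds leukotriene B4, and Ptafr binds platelet-activating factor. Cxcr4 binds Cxcl12 made by marrow stroma and holds developing neutrophils in the marrow, whereas Cxcr2 drives their release into the blood, and G-CSF is used to mobilise marrow cells by loosening the Cxcl12 and Cxcr4 tie. As granulocytes mature, Cxcr4 falls and Cxcr2 and the other chemoattractant receptors are acquired.

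The arrays were not alike in quality or content. Hepatocyte transcripts were abundant on every array, with albumin (Alb) signals of 52320 and 46300 in G-CSF and 43300 and 46070 in PBS. The summed hepatocyte markers were lowest on PBS replicate 1, with 236800 and 227100 in G-CSF and 156800 and 267300 in PBS. Leukocyte transcripts were present too, and Ptprc, which encodes CD45, had signals of 14510 and 12990 in G-CSF and 31270 and 8322 in PBS, overlapping between the groups. Of the 8 pan-leukocyte markers, 4 were at least 2-fold higher with G-CSF without overlap (Lcp1, Cd52, Itgb2 and Spi1) and 0 were lower. Over all genes tested 4.04% were higher and 1.52% lower in this way. The list's median log2 difference was 1.15. Correlations over the tested genes were 0.974 between the G-CSF arrays and 0.813 between the PBS arrays. PBS replicate 1 was the array least like the rest, at 0.813 to 0.844 with each of them. Gapdh control signals at the 3' end exceeded those at the 5' end, by ratios of 20.2 and 19.1 in G-CSF and 15.7 and 14.8 in PBS. Such a ratio rises when RNA is less intact, and both G-CSF arrays had higher ratios than both PBS arrays. The part of RNA integrity in the results was not tested. An array's background was taken as the highest of 27 control probe sets for Bacillus subtilis transcripts, 86.4 and 63.0 in G-CSF and 106 and 94.6 in PBS.

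Chemoattractant receptor transcripts had higher signals in both G-CSF arrays than in either PBS array for 5 of the 9 genes, namely Cxcr2, Ltb4r1, Fpr2, Ccr1 and C5ar1, each at least 2-fold apart. Cxcr4, the retention receptor, did not separate the groups. Over all 12187 genes tested, 4.04% were higher by 2-fold or more with no overlap, and 1.52% were lower by as much. Cxcr2, Ltb4r1 and C5ar1 passed the filter through their G-CSF arrays alone, so the count describes these genes and is not a test. After Benjamini-Hochberg adjustment limma called 0 genes higher (0%) and 0 lower (0%), and none of the receptors passed. The unadjusted limma p was below 0.05 for the same 5 receptors, all higher, beside 382 of all genes higher (3.13%) and 47 lower (0.386%). In bulk RNA, more cells of a type and more RNA per cell cannot be told apart.

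**Figure D1:**
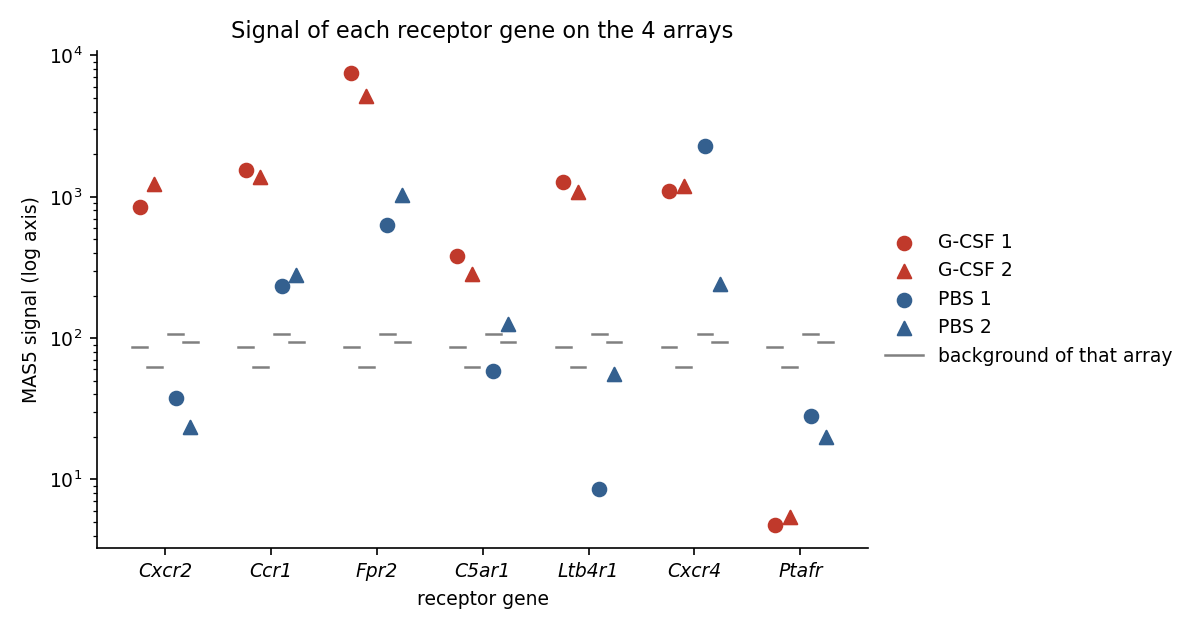
MAS5 signal (log axis) of the 7 receptor genes with a probe set, one point per array, with G-CSF in red and PBS in blue; grey ticks mark each array's background. Cxcr2, Ccr1, Fpr2, C5ar1 and Ltb4r1 have both red points above both blue points, the Cxcr4 points of PBS lie on either side of G-CSF, and all Ptafr points lie below background.

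The promoters are shown for the 4 receptors with the largest differences and for Cxcr4, whose groups overlapped, to let their sequence be set side by side. Each is the RefSeq window from 250 bases before to 50 after the annotated start on build GRCm38.p6, read 5′ to 3′ on the gene's own strand. Capitals mark matches to GAGGAA, the core bound by the myeloid factor PU.1 (its reverse complement is TTCCTC), and to TTCNNNGAA, the STAT element, since G-CSF signals through STAT3.
Cxcr2: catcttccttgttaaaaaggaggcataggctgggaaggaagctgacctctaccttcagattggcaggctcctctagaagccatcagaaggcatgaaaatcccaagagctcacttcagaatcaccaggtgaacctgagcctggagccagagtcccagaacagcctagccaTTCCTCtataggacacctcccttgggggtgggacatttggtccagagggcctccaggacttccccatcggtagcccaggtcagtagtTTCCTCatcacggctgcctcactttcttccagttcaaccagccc
Ltb4r1: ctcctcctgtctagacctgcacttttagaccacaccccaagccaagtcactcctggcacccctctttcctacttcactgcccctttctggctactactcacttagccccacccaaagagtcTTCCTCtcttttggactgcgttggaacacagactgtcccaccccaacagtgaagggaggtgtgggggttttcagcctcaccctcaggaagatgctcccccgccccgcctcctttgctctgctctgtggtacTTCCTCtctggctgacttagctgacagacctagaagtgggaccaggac
Fpr2: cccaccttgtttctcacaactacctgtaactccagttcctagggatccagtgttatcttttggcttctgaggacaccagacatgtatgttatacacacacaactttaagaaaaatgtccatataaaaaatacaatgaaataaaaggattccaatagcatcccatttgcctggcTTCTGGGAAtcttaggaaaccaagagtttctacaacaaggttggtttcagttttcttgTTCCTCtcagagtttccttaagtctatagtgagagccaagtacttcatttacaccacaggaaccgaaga
Ccr1: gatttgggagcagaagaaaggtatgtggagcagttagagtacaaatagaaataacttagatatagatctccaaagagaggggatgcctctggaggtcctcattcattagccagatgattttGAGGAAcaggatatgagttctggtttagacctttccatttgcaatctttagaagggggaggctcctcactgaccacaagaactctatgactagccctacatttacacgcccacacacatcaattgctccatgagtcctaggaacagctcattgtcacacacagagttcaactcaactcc
Cxcr4: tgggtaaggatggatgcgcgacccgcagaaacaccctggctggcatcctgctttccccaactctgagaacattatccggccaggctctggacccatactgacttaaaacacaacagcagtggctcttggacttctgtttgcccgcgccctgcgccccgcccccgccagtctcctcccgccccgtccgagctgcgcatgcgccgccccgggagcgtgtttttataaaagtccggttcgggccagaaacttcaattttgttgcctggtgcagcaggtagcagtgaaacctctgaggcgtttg
These windows are chr1:74153744-74154043 (plus strand) for Cxcr2, chr14:55765712-55766011 (plus strand) for Ltb4r1, chr17:17887574-17887873 (plus strand) for Fpr2, chr9:123968643-123968942 (minus strand) for Ccr1 and chr1:128592250-128592549 (minus strand) for Cxcr4. Both strands were searched for GAGGAA, TTCNNNGAA and the C/EBP core TTGCNNAA, which do not overlap in these windows. GAGGAA was found in 5 of the 9 receptor promoters, those of Cxcr2, Ccr1, Fpr2, Ltb4r1 and Ptafr, and in 28.3% of 32851 mouse promoters of the same length. Cxcr2 and Ltb4r1 hold 2 matches each, one of them just downstream of the start (from base 7 and base 3). TTCNNNGAA was found in the Fpr2 promoter alone of the 9 and in 8.30% of all promoters, and TTGCNNAA in 0 of the 9 and 10.8% of all. The windows of Cxcr4, C5ar1, Cxcr1 and Fpr1 held none of the 3 motifs, and Ptafr, which holds GAGGAA, was below background. A match is a run of letters and not a measured binding site. Cxcr1 is the neighbour of Cxcr2 on chromosome 1, and Fpr1 the neighbour of Fpr2 on chromosome 17, with 0 protein-coding genes between them in each case.

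Cxcr2 and Ltb4r1 were above background only in G-CSF. Cxcr2, the receptor for Cxcl1, Cxcl2 and Cxcl5 that brings neutrophils out of the marrow, had signals of 848 and 1240 in G-CSF and 37.4 and 23.5 in PBS. Both G-CSF arrays were well above background and both PBS arrays were below it. Cxcr2 was therefore at least 8.51-fold higher with G-CSF, with mean log2(signal + 23) of 10.03 ± 0.38 in G-CSF and 5.73 ± 0.27 in PBS (SD, n = 2 each). The computed difference of 4.31 ± 0.40 (SE) rests on PBS signals below background and is no bound (limma, unadjusted p = 0.000100, adjusted p = 0.0893). Ltb4r1, the high-affinity leukotriene B4 receptor that relays neutrophil swarming, had signals of 1282 and 1075 in G-CSF and 8.49 and 55.3 in PBS. The G-CSF arrays were close together and the PBS arrays both lay below background. Ltb4r1 was at least 9.71-fold higher, with means of 10.23 ± 0.18 in G-CSF and 5.63 ± 0.93 in PBS (SD, n = 2 each) and a computed log2 difference of 4.59 ± 0.54 (limma, adjusted p = 0.131).

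Fpr2 and Ccr1 were above background on all 4 arrays, so their fold changes rest on measured levels in both groups. Fpr2, a receptor for formyl peptides and for lipid and peptide agonists that can start or resolve inflammation, had signals of 7476 and 5172 in G-CSF and 635 and 1030 in PBS. The lowest G-CSF array was far above the highest PBS array. On the log2 scale Fpr2 was higher by 2.91 ± 0.41, a 7.50-fold difference (limma, unadjusted p = 0.000803, adjusted p = 0.196). Ccr1, a receptor for CC chemokines such as Ccl3, Ccl6 and Ccl9 on neutrophils and monocytes, had signals of 1541 and 1381 in G-CSF and 232 and 281 in PBS. Its replicates were the tightest of the receptors that separated the groups, with SDs of 0.11 in G-CSF and 0.18 in PBS. Ccr1 was higher by 2.41 ± 0.32, or 5.32-fold (limma, unadjusted p = 0.000610, adjusted p = 0.173). The second Ccr1 probe set had signals of 368 and 507 in G-CSF and 68.4 and 45.5 in PBS, which gave a difference of 2.52 with PBS below background.

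C5ar1, the C5a receptor that couples complement activation to neutrophil recruitment, differed least among these 5. Its signals were 384 and 285 in G-CSF and 58.1 and 126 in PBS. The groups did not overlap, but PBS replicate 1 lay below background and PBS replicate 2 just above it. The log2 difference was 1.69 ± 0.47, or 3.22-fold, with a 95% interval of 0.50 to 2.88 (limma, unadjusted p = 0.0145, adjusted p = 0.977). The other C5ar1 probe set was below background on all 4 arrays, with signals of 15.3 and 24.95 in G-CSF and 9.24 and 10.7 in PBS, and the mean of both probe sets gave 1.03. Ptafr, the receptor for platelet-activating factor, was below background on all arrays by both of its probe sets. The brighter Ptafr probe set had signals of 4.74 and 5.40 in G-CSF and 28.3 and 20.0 in PBS. No fold is given for Ptafr, and its difference between the groups could not be measured with these probe sets.

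Beside these receptors, neutrophil markers were also higher with G-CSF. Of 18 neutrophil markers, 16 were tested and all 16 were at least 2-fold higher without overlap, beside 4.04% of all genes. Elane and Cd177 passed the filter through their G-CSF arrays alone, so the count is a description and not a test. The summed signal of the neutrophil markers was 258400 to 311200 in G-CSF and 18470 to 29490 in PBS. The median log2 difference of the neutrophil markers was 4.60, against 0.07 over all genes tested. Monocytes also carry Ccr1, Fpr2 and C5ar1. Of 8 tested monocyte markers, 4 were at least 2-fold higher without overlap (Ccr2, F13a1, Vcan and Plac8), beside 4.04% of all genes. Cd14, Csf1r, Cx3cr1 and Fn1 overlapped between the groups, with differences of 0.47, 0.28, −0.16 and 0.37. The summed monocyte marker signals were 56860 and 61710 in G-CSF and 30500 and 57070 in PBS. Among Kupffer cell and macrophage markers 0 of 9 were at least 2-fold apart without overlap, with a median difference of 0.20 and with Timd4 and Marco below background on all arrays. Of the eosinophil, basophil and mast cell markers, 3 of 5 tested (Siglecf, Mcpt8 and Ms4a2) were at least 2-fold higher without overlap from PBS levels below background. These 3 passed the filter through their G-CSF arrays alone, so their count is not a test. Cpa3 and Kit, the other tested genes of that list, overlapped between the groups, and Ccr3, Epx, Prg2 and Il5ra were below background on all arrays. How far the numbers of these cells account for the receptor signals was not tested.

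Cxcr4 did not differ between the groups beyond the spread of the PBS arrays. Its signals were 1101 and 1198 in G-CSF and 2293 and 242 in PBS. The G-CSF arrays were nearly equal and lay between the PBS arrays, which were far apart. Mean log2(signal + 23) was 10.19 ± 0.08 in G-CSF and 9.61 ± 2.21 in PBS (SD, n = 2 each), a difference of 0.58 ± 1.03 (SE) with a 95% interval of −2.04 to 3.197 (limma, adjusted p = 0.988). The direction depended on which PBS array was used. Without PBS replicate 1 Cxcr4 was higher with G-CSF by 2.14, and without PBS replicate 2 it was lower, by a difference of −0.98. In both fits the lone PBS array is assumed to vary like the G-CSF arrays. For Cxcr4 the SDs were 0.08 in G-CSF and 2.21 in PBS, so no test is read from these fits.

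PBS replicate 1, the array with the highest Cxcr4 signal, was also the array with high T cell transcripts. The median signal of 11 T and NK cell markers was 174 and 111 in G-CSF and 1636 and 104 in PBS, and their sum was 4198 and 2937 in G-CSF and 50910 and 2771 in PBS. Of the 9 tested, 1 was at least 2-fold higher with G-CSF without overlap (Nkg7) and 4 were lower (Cd247, Cd8b1, Cd28 and Gzma). Against PBS replicate 2 alone Cd247, Cd8b1 and Gzma differed by −0.24, −0.42 and −0.92, short of 2-fold, and Cd28 by −1.13. Cd8b1 was above background on PBS replicate 1 only. Cd247, Cd8b1 and Cd28 passed the filter through their PBS arrays alone, so the count of 4 is not a test. The shares over all genes were 4.04% higher and 1.52% lower. Ncr1 was below background on all arrays. Ccr9, a chemokine receptor of thymocytes and gut-homing T cells picked after its values were seen, had signals of 105 and 118 in G-CSF and 8433 and 81.7 in PBS. Cxcr4 is made by T cells, B cells, monocytes and progenitors as well as neutrophils. B and plasma cell markers were lowest on that array by their sum, 12690 and 16570 in G-CSF and 5980 and 21470 in PBS. The part of T cell RNA in the Cxcr4 signal was not tested. By contrast Cxcr2 was below background on both PBS arrays, and its difference was 4.12 against PBS replicate 1 alone and 4.49 against PBS replicate 2 alone, computed from those signals.

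**Figure D2:**
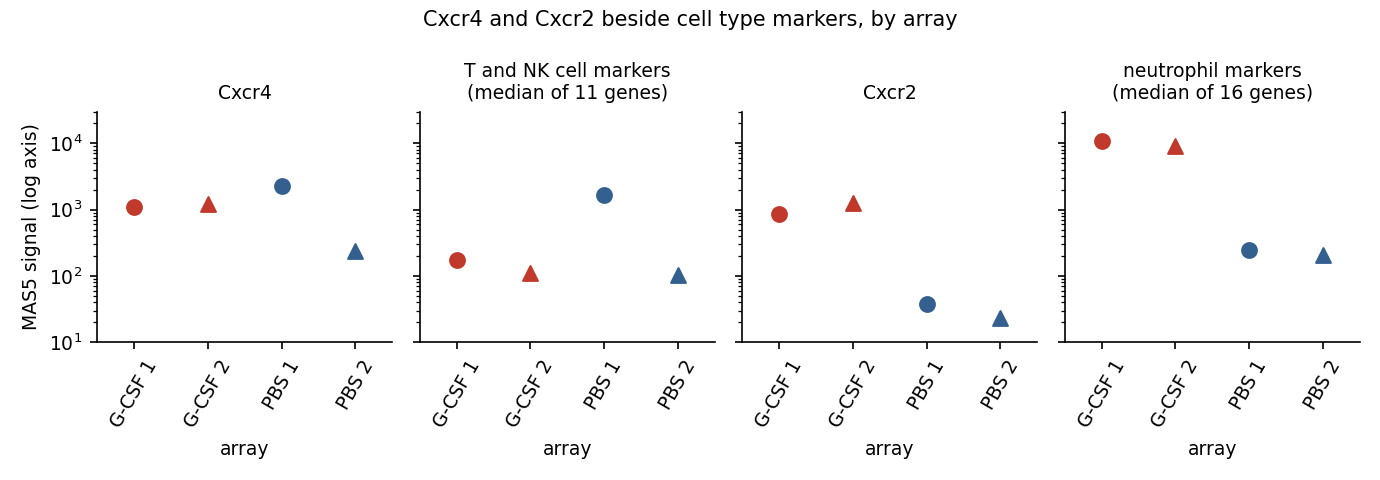
MAS5 signal (log axis) of Cxcr4, of the median T and NK cell marker, of Cxcr2 and of the median neutrophil marker, one point per array, with G-CSF in red and PBS in blue. PBS replicate 1 is highest for Cxcr4 (2293) and for the T and NK cell markers (1636), while both PBS arrays are low for Cxcr2 and for the neutrophil markers.

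The other receptors kept their direction against either PBS array. Against PBS replicate 1 and PBS replicate 2 alone the differences were 5.25 and 3.93 for Ltb4r1, 3.25 and 2.57 for Fpr2, 2.54 and 2.29 for Ccr1, and 2.13 and 1.25 for C5ar1, where PBS signals below background (both for Ltb4r1, replicate 1 for C5ar1) were used as deposited. Without PBS replicate 1, limma called Cxcr2, Ltb4r1, Fpr2 and Ccr1 higher, with adjusted p of 0.00103 to 0.00455, in a fit that called 2.78% of all genes higher. Without PBS replicate 2 it called those 4 and C5ar1 higher (adjusted p of 0.000137 to 0.00485), in a fit that called 22.6% of all genes higher. Without G-CSF replicate 1 limma called 0.0492% of genes higher and none of the receptors, the smallest adjusted p among them being 0.0572, for Cxcr2. Without G-CSF replicate 2 it called 0.181% higher, with Ltb4r1 the one receptor called (adjusted p = 0.0491). In these fits the lone G-CSF array is assumed to vary like the PBS arrays. In the fits without a PBS array the lone PBS array is assumed to vary like the G-CSF arrays. The SD between replicates was 0.29 in G-CSF and 0.82 in PBS, so neither assumption holds. The fits without a PBS array also called Cxcr4, higher without PBS replicate 1 and lower without PBS replicate 2. No test is therefore read from any fit with an array left out, for these receptors as for Cxcr4. With array weights, which set the PBS arrays lower than the G-CSF arrays and called 0.271% of genes higher, Cxcr2 and Ltb4r1 were called (adjusted p = 0.0301 and 0.0200).

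**Figure D3:**
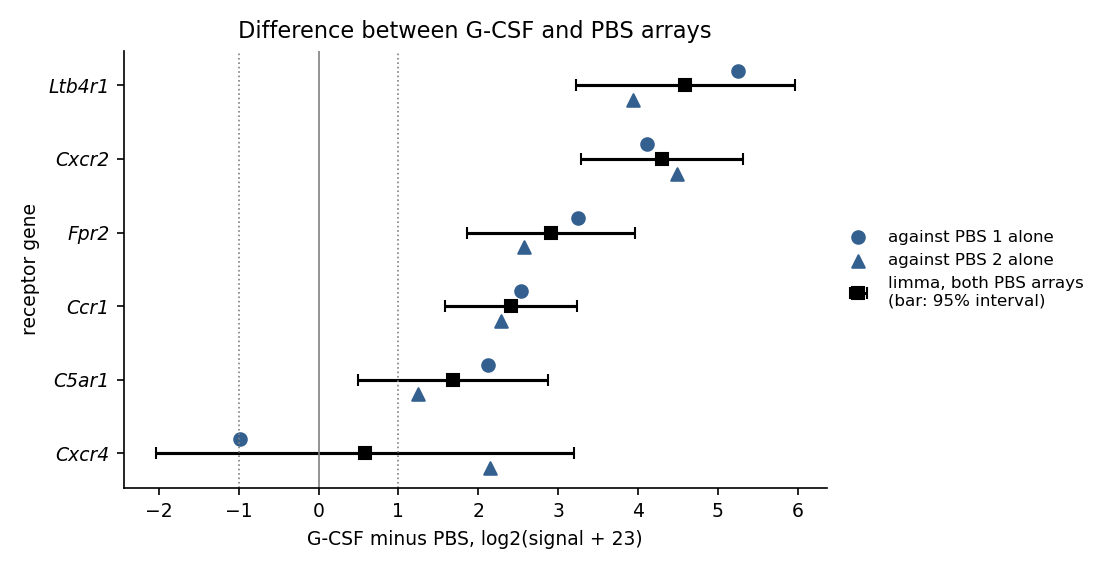
Difference between G-CSF and PBS on the log2(signal + 23) scale for the 6 receptors tested: squares give the limma estimate with its 95% interval, circles and triangles the same against PBS replicate 1 or 2 alone; dotted lines mark a 2-fold difference. The Cxcr4 interval runs from −2.04 to 3.197 and its 2 blue points lie on opposite sides of 0, while those of the other 5 genes lie above 1.

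Cxcr2 relative to Cxcr4 was higher on both G-CSF arrays than on either PBS array. Probe sets differ in brightness, so only the change of such a value between arrays is read, not its level. The within-array log2 value of Cxcr2 minus that of Cxcr4 was −0.37 and 0.05 in G-CSF and −5.26 and −2.51 in PBS. Since Cxcr2 was below background on both PBS arrays, only a bound can be given: with Cxcr2 at background there, the PBS values were −4.16 and −1.17. This value was then higher with G-CSF by at least 2.51, by at least 4.002 against PBS replicate 1 alone and by at least 1.01 against PBS replicate 2 alone. Contrasts that use PBS replicate 1 rest in part on its Cxcr4 signal of 2293, on the array with high T cell transcripts. The part of T cell RNA in these contrasts was not tested. Ltb4r1 minus Cxcr4, bounded in the same way, was higher by at least 2.70, and by at least 1.204 against PBS replicate 2 alone, with no overlap. For Ccr1 and Fpr2 the same contrast was 1.83 and 2.33 with both PBS arrays but 0.14 and 0.42 against PBS replicate 2 alone, and for C5ar1 the groups overlapped. An exact two-sided permutation test gave p = 0.333 for each of the 4 contrasts without overlap (adjusted p = 0.416 over 5 contrasts) and p = 1 for C5ar1. With 2 arrays against 2 the smallest p is 0.333, so this test could not pass.

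Among ligands and ligand-making enzymes, annexin A1 and the genes that start leukotriene synthesis were higher with G-CSF. Of 25 genes in the list, 22 were tested. At least 2-fold higher without overlap were 9 (Cxcl2, Cxcl5, Ppbp, Ccl8, Anxa1, Alox5, Alox5ap, Lpcat2 and Saa3). By that measure 0 were lower, beside 4.04% higher and 1.52% lower over all genes. The adjusted limma test passed 0, and the unadjusted p was below 0.05 for 6. Against PBS replicate 2 alone Cxcl2, Cxcl5 and Lpcat2 differed by 0.66, 0.73 and 0.65, short of 2-fold, and the others of the 9 by more. Ppbp, also a platelet marker, was uneven, with 4489 and 280 in G-CSF and 109 and 159 in PBS. The list's median difference was 0.85, and it was 1.47 against PBS replicate 1 and 0.47 against PBS replicate 2 alone. On the formyl peptide branch, Anxa1, which encodes the Fpr2 agonist annexin A1, had signals of 39860 and 28120 in G-CSF and 5621 and 6086 in PBS. Anxa1 was thus higher on both G-CSF arrays, by 2.51 ± 0.31 (limma, adjusted p = 0.150). On the leukotriene branch, Alox5, 5-lipoxygenase, had signals of 1448 and 1020 in G-CSF and 74.4 and 141 in PBS, where replicate 1 was below background. Alox5ap, the protein that presents arachidonate to 5-lipoxygenase, had 17690 and 13450 in G-CSF and 849 and 2830 in PBS. Both genes differed by 3.29, with SEs of 0.42 for Alox5 and 0.62 for Alox5ap. Lta4h, the hydrolase that completes leukotriene B4, overlapped between the groups, with 3411 and 2969 in G-CSF and 3230 and 1215 in PBS.

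Values of the chemokine and complement ligands varied with the PBS array. Cxcl1, a Cxcr2 ligand, had signals of 2371 and 2635 in G-CSF and 1303 and 3845 in PBS, a difference of 0.16 ± 0.58. Cxcl2, another Cxcr2 ligand, had 329 and 271 in G-CSF and 45.5 and 181 in PBS, with PBS replicate 1 below background, and differed by 1.45 ± 0.61 (limma, unadjusted p = 0.0635). Cxcl12, the Cxcr4 ligand, was abundant on every array, with 13920 and 16400 in G-CSF and 5334 and 13330 in PBS, a difference of 0.84 ± 0.50 (limma, unadjusted p = 0.153). Both G-CSF arrays were above both PBS arrays for Cxcl12, but PBS replicate 2 lay close to them. Hc, which encodes complement C5, the source of C5a, had 3766 and 4050 in G-CSF and 1885 and 7341 in PBS. Ccl8, whose human counterpart binds CCR1 among other receptors, was higher by 1.73 ± 0.38, with 823 and 1287 in G-CSF and 255 and 337 in PBS (limma, adjusted p = 0.678). Cxcl3, Cxcl15 and Ccl7 were below background on all arrays.

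Among other chemoattractant receptors, Ffar2 and Ccr2 were higher with G-CSF. Of 26 other chemokine and chemoattractant receptors 14 were tested, and 2 were at least 2-fold higher without overlap, 0 were lower and 0 passed the adjusted limma test, with an unadjusted p below 0.05 for those 2. Over all genes 4.04% were higher by this measure. The 2 were Ffar2, a short-chain fatty acid receptor of neutrophils, with 766 and 566 in G-CSF and 103 and 164 in PBS (replicate 1 below background), and Ccr2, the monocyte egress receptor, with 3082 and 4053 in G-CSF and 803 and 1403 in PBS. Their differences were 2.15 ± 0.39 for Ffar2 and 1.71 ± 0.42 for Ccr2 (limma, adjusted p = 0.380 and 0.795). Cxcr3, a T and NK cell receptor, differed by 0.84 ± 0.42, Ackr4, a scavenging receptor, by 0.64 ± 0.42, and Ackr3, a scavenger of Cxcl12, by 0.40 ± 0.39. Ccr3, Ccr4, Ccr7, Ccr8, Xcr1 and Ptgdr2 were below background on all arrays, and C5ar2, Ltb4r2 and Fpr3 are not analysed here. The list's median difference was 0.38, and it was −0.04 against PBS replicate 2 alone.

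Among genes that carry the signal onward, Fgr and Dock5 were higher with G-CSF. Of 28 signalling genes 25 were tested, and 2 were at least 2-fold higher without overlap, 0 were lower and 0 passed the adjusted limma test, with an unadjusted p below 0.05 for the same 2, beside 4.04% higher and 1.52% lower over all genes by fold and separation. One was Fgr, a Src-family kinase of neutrophils, at 1.48 ± 0.40, and the other was Dock5, a Rac exchange factor, at 1.41 ± 0.47. The median difference of the signalling list was 0.41. Gnai2, the main Gi alpha subunit of leukocytes, had signals of 15580 and 13600 in G-CSF and 10940 and 10720 in PBS, a difference of 0.43 ± 0.28. Pik3cg, the kinase downstream of G beta-gamma subunits, overlapped, with 726 and 733 in G-CSF and 904 and 349 in PBS. Mapk14 and Gng2 differed by 0.68 ± 0.34 and 0.64 ± 0.32.

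Among regulators that switch such receptors off, Rgs18 and beta-arrestin 2 were higher with G-CSF. Of 16 genes for desensitisation and trafficking 15 were tested, and 4 were at least 2-fold higher without overlap (Rgs18, Rgs14, Rgs19 and Arrb2). By that measure 0 were lower, beside 4.04% higher and 1.52% lower over all genes. The adjusted limma test passed 0, and the unadjusted p was below 0.05 for those 4. Rgs18, a GTPase-activating protein of platelets and myeloid cells, had signals of 1447 and 634 in G-CSF and 49.5 and 118 in PBS, a difference of 3.28 ± 0.57 (limma, adjusted p = 0.338). Both G-CSF arrays were above background while PBS replicate 1 was below it. Rgs18 passed the filter through its G-CSF arrays alone, so the count of 4 is not a test. Platelet and megakaryocyte markers were uneven on the same arrays, with summed signals of 13690 and 5167 in G-CSF and 3231 and 3886 in PBS, and their part in the Rgs18 signal was not tested. Arrb2, beta-arrestin 2, which uncouples and internalises activated receptors, had 2295 and 1944 in G-CSF and 854 and 1240 in PBS and differed by 1.02 ± 0.36. Rgs14 and Rgs19 differed by 1.16 ± 0.36 and 1.03 ± 0.39, and Rgs2 by 0.71 ± 0.32. Against 1 PBS array alone 3 of these fell short of 2-fold: Arrb2 (0.76) and Rgs19 (0.96) against replicate 2, and Rgs14 (0.85) against replicate 1. Rgs18 differed by 3.76 and 2.80 against PBS replicates 1 and 2 alone.

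On the marrow retention and release axis, neutrophil proteases and the G-CSF receptor were higher with G-CSF. Of 16 genes 14 were tested, and 6 were at least 2-fold higher without overlap (Ctsg, Mmp9, Elane, Csf3r, Itgb2 and Cd44). By that measure 1 was lower (Dpp4), beside 4.04% higher and 1.52% lower over all genes. The adjusted limma test passed 0, and the unadjusted p was below 0.05 for those 7. Ctsg and Elane passed the filter through their G-CSF arrays alone, so the count of 6 is not a test. Ctsg, Elane and Mmp9 encode neutrophil proteases that can cleave Cxcl12 or Vcam1 in marrow. Elane had signals of 1362 and 2461 in G-CSF and 59.7 and 117 in PBS, where replicate 1 was below background, and Mmp9 had 10780 and 6360 in G-CSF and 573 and 290 in PBS. Ctsg, with 7713 and 13160 in G-CSF and 84.9 and 17.9 in PBS, was at least 81.9-fold higher, since both PBS arrays lay below background. Csf3r, the G-CSF receptor, had 3302 and 3496 in G-CSF and 167 and 264 in PBS, a difference of 3.87 ± 0.36 (limma, adjusted p = 0.0893). Elane, Mmp9 and Csf3r are also in the neutrophil marker list described above, so their values are not separate from it. Dpp4, the peptidase CD26 that trims Cxcl12, had 526 and 492 in G-CSF and 2478 and 975.4 in PBS. Its difference was −1.57 ± 0.52 (limma, unadjusted p = 0.0283, adjusted p = 0.988), and it was picked after its values were seen. Dpp4 differed by −2.23 against PBS replicate 1 alone and by −0.91, short of 2-fold, against PBS replicate 2 alone. PBS replicate 1 was the array with high T cell transcripts, and their part in the Dpp4 signal was not tested. Vcam1 and Itga4, the adhesion pair that holds cells in marrow, differed by −0.12 ± 0.31 and −0.05 ± 0.44.

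**Figure D4:**
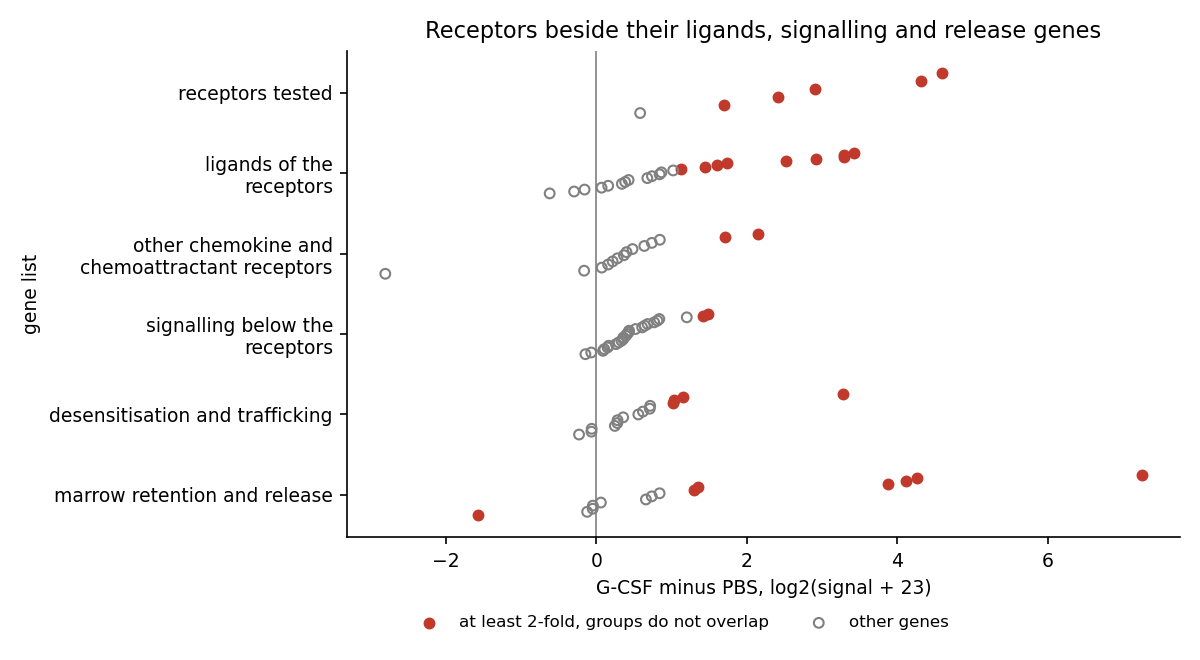
Difference between G-CSF and PBS on the log2(signal + 23) scale for the receptors tested and for the tested genes of 5 related lists, one point per gene. Filled points are at least 2-fold apart without overlap of the groups: 5 receptors, 9 ligands or ligand-making enzymes, 2 other receptors, 2 signalling genes, 4 desensitisation genes and 7 retention and release genes, of which Dpp4 is the one on the lower side. Values of genes below background in PBS, such as Cxcr2, Ltb4r1 and Ctsg, are computed and are not bounds.

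The genes whose values followed each receptor most closely over the 4 arrays were found by the smallest Euclidean distance between log2 values centred on each gene's mean, and are given as a description. Nearest to Cxcr2 were Ms4a3, a gene of granulocyte and monocyte progenitors, Stfa2l1, a stefin of neutrophils, and Chil1, a chitinase-like protein (distances of 0.33, 0.45 and 0.63). Nearest to Ltb4r1 were Asprv1, Serpinb1a, an inhibitor of neutrophil proteases, and Csf3r (0.72, 0.77 and 0.91). Fpr2 lay nearest to Olfml2b, Slco4c1 and Mcemp1 (0.20, 0.21 and 0.26), and Ccr1 to Lin28a, 4930438A08Rik and Gpr84, a fatty acid receptor of myeloid cells (0.14, 0.21 and 0.23). C5ar1 was closest to Adam8, Cd52, a surface glycoprotein of leukocytes, and Myo1f, a myosin of leukocytes (0.13, 0.16 and 0.19). Cxcr4 was closest to genes that were likewise highest on PBS replicate 1 and lowest on PBS replicate 2, namely Stk26, Il27ra and Lbr, the lamin B receptor (0.24, 0.26 and 0.32). Lbr, for example, had signals of 6736 and 5906 in G-CSF and 11590 and 1635 in PBS. Chil1, Olfml2b, Slco4c1, Lin28a, 4930438A08Rik and Gpr84 lay below background on both PBS arrays, as did Cxcr2 and Ltb4r1. C5ar1 lay below background on PBS replicate 1 and Il27ra on PBS replicate 2. Distances that involve these genes rest in part on PBS signals that are not measured levels.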

How the data were processed

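Total RNA from 4 samples, 2 for G-CSF and 2 for PBS, was measured on 1 Affymetrix mouse array each, from 40 ng per the labels' protocols. The authors deposited intensity values, linear and made with MAS5 per the submitters' processing notes (version not given in the sources used here). Those values had a 2% trimmed mean of 500 on each array and were not rescaled. Of 45101 probe sets, 64 were controls, 932 listed several genes and 9160 listed none. The other 34945 listed 1 gene, and 34741 of these were matched by Entrez ID to a current symbol. Each gene was represented by its brightest probe set by mean signal.

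Groups were compared by limma 3.58.1 in R 4.3.3 on log2(signal + 23), where 23 is the median of all values (92.9) divided by 4, two-sided, with an intensity trend in the prior variance and p adjusted by Benjamini-Hochberg at 0.05 over 12187 genes. Residual degrees of freedom numbered 2, beside 3.13 from the prior. Where PBS lay below background on both arrays, the fold is a lower bound: the G-CSF mean over the PBS mean with each PBS array at its background. The background limit, the members, the lists and the rule for named genes were chosen with earlier results of these data known. By that rule the text names all receptors, up to 4 genes per list with the smallest p, a fixed set of pathway genes and the 3 nearest genes per receptor; other genes named in counts or as examples were picked later. The code was run on simulated data with the same spread in both groups. The SD between replicates of these arrays was 0.29 in G-CSF and 0.82 in PBS (log2), so that run does not cover them. Alternatives were other normalizations, pseudocounts, filters, variance models and probe set rules, array weights, the replicate number as a block, and each array left out. The number of arrays limits the precision. Figures used Python 3.11.15, pandas 2.3.3 and matplotlib 3.10.9.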

Additional observations from a re-analysis of the deposited data

How the results depend on the processing

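Directions held for Cxcr2, Ltb4r1, Fpr2, Ccr1 and C5ar1 under every alternative that was run, and for Cxcr4 under all but one. C5ar1 has no value under the 75th percentile filter, which it did not pass. Leaving out 1 array at a time gave differences of 4.04 to 4.58 for Cxcr2, 3.93 to 5.25 for Ltb4r1, 2.57 to 3.25 for Fpr2, 2.29 to 2.54 for Ccr1 and 1.25 to 2.13 for C5ar1. Cxcr4 ran from −0.98, without PBS replicate 2, to 2.14, without PBS replicate 1. The number of receptors at least 2-fold apart without overlap was 4 to 6, against 5; it was 4 where C5ar1 failed the filter and 6 where Cxcr4 joined without PBS replicate 1. Genes called by limma over all genes tested numbered 6 to 2753 higher and 0 to 1936 lower with 1 array left out, against 0 and 0. Array weights gave 33 higher, with Cxcr2 (4.31) and Ltb4r1 (4.59) among them, and specific probe sets only gave 11 higher, with none of the receptors among them. With the replicate number as a block, 89 genes were called higher and 3 lower, including Cxcr2 (4.31), Ltb4r1 (4.59), Fpr2 (2.91) and Ccr1 (2.41). The samples share only a number, since deviations of same-numbered arrays correlated at −0.038 over genes and nothing in the labels pairs them. No test is read from the fits with 1 array left out, and the cause of these shifts was not tested. The size for Cxcr2 moved from 3.19 with 4 times the pseudocount to 5.06 with a pseudocount of 1, and for Ltb4r1 from 3.38 to 5.67, since PBS was below background. Receptors below background on an array have only an upper limit there.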

Other observations

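Serum amyloid A genes, whose products are known as Fpr2 agonists from work in human cells, did not move as a group. Saa3, made outside hepatocytes, had signals of 7462 and 7197 in G-CSF and 229 and 1838 in PBS, a difference of 3.42 ± 0.95 (limma, unadjusted p = 0.0150, adjusted p = 0.984). Saa1 and Saa2, made by hepatocytes in the acute phase, overlapped between the groups. Saa1 had signals of 2201 and 4095 in G-CSF and 1631 and 13080 in PBS, and Saa2 had 230 and 380 in G-CSF and 156 and 840 in PBS. These 3 genes were picked after their values were seen.

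Ccr10 and Cxcr6, lymphocyte chemokine receptors that lay below the filter on low values, were above background in both G-CSF arrays and in neither PBS array. Ccr10 had signals of 92.2 and 125 in G-CSF and 10.4 and 19.0 in PBS, and Cxcr6 had 100.0 and 114 in G-CSF and 47.7 and 91.8 in PBS. The G-CSF signals were at least 1.06-fold higher for Ccr10 and at least 1.05-fold higher for Cxcr6, so both lay close to background.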
